A study of Mus musculus with 12 samples.

Results

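The 48 genes described here copy the chromosomes and supply nucleotides for the copy. They were found by symbol among the 33924 genes of a count table from mouse blood progenitors. They were chosen as named genes of origin licensing, the replication fork and nucleotide synthesis, and were sorted into 8 steps. The rule uses no measured value, though the choice was made with earlier results of these data known. All 48 were counted deeply enough to enter the test, as were 10604 genes in all.

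The data are 12 libraries from bone marrow of femurs and tibias, 3 in each of 4 groups, read by 3' tag sequencing, which counts 1 end of each transcript. Live cells were sorted that carried c-Kit and neither Sca1 nor lineage markers, a gate that holds progenitors of the myeloid, erythroid and megakaryocyte lines. Per the labels, controls were Mx+ Wt1+/+ and hets Mx+ Wt1fl/+. All 4 groups thus carried the Mx+ element, which the labels do not expand, and the hets carried 1 floxed allele of Wt1, a zinc finger transcription factor gene. The labels name no treatment, and neither an age in numbers nor whether the floxed allele had been deleted is given in the sources used here. They tie the word chronic to every old sample and acute to every young one, so age and that condition cannot be told apart. The groups are called young control, young het, old control and old het below, and the question put by the design is how het progenitors differ from controls of the same age.

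In eukaryotes, replication starts at origins, where the origin recognition complex, Cdc6 and Cdt1 load the ring-shaped MCM helicase in G1, and geminin blocks a repeat loading. In S phase Mcm10 and the GINS complex help turn the ring into a moving helicase, polymerase alpha with primase lays down primers, and polymerases delta and epsilon extend them. Many of these genes are switched on together at the G1/S border by E2F transcription factors, and dividing blood progenitors are rich in them.

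Of the 48 members, 2 changed in any of the 5 comparisons, and both fell in old control against young control. They were Dut, whose product dUTPase keeps uracil out of DNA, and Pold3, an accessory subunit of polymerase delta. No member passed the test between het and control in young or in old libraries. The mitochondrial rRNA share of the libraries moved with Dut, and with that share in the model neither gene passed, as given with their values below.

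The promoters of 4 members are shown, of both genes that passed and of 2 licensing genes in which forms of the E2F site were found before the start. Each is the 250 bases before the RefSeq gene start in GRCm38.p6, 5' to 3' on the gene's strand. Capitals mark matches, on either strand, to the E2F forms TTTCCCGC, TTTCGCGC, TTTGCCGC and TTTGGCGC or to CCAAT, the letters to which NF-Y binds. In Mcm5 and Mcm6, forms on opposite strands overlap and print as 1 longer run. The stretches lie at chr8:75109259-75109508 (Mcm5, plus strand), chr1:128359706-128359955 (Mcm6, minus strand), chr2:125247265-125247514 (Dut, plus strand) and chr7:100121503-100121752 (Pold3, minus strand).
Mcm5: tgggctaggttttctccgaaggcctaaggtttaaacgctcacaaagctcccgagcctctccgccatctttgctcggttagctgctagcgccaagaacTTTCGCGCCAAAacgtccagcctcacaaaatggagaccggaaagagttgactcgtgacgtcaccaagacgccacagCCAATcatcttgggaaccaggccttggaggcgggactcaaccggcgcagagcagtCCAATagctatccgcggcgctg
Mcm6: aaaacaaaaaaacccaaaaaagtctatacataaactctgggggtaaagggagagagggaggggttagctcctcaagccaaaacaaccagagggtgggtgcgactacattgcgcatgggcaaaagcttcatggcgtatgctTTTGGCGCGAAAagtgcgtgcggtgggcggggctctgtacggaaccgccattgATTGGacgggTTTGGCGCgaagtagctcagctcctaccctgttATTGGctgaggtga
Dut: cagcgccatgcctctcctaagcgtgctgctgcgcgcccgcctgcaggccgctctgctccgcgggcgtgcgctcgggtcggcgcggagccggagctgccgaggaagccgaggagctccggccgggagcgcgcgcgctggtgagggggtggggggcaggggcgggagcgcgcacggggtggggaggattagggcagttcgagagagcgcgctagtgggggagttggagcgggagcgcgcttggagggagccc
Pold3: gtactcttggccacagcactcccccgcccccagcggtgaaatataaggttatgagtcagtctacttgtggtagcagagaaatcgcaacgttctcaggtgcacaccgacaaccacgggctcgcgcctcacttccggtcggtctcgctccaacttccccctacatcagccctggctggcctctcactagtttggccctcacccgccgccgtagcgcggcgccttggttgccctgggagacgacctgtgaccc

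No capitals stand in the Dut and Pold3 stretches. The E2F form of Pold3 lay in the 50 bases after its start, and Dut had neither motif in its 300-base window. A window of 250 bases before and 50 after the start was at hand for 39 of the 48 members, some with more than 1 start and so 46 windows in all, and a gene is counted once if any of its windows holds a match. An E2F form was found in 15 of the 39 (38.5%, 95% Wilson interval 24.9 to 54.1%), against 704 of 27025 genes (2.61%) of the same table. CCAAT was found in 22 of the 39 (56.4%) and in 41.1% of all genes. By step, 6 of 7 licensing genes and 4 of 7 polymerase genes held an E2F form in a window, while 0 of 6 nucleotide supply genes did. A match describes letters in a window and is not a mapped binding site, and the presence of a form did not enter any test. The windows of Pole, Ccne2, Gins1, Gins2, Gins4, Mcm4, Gmnn, Prim2 and Rfc2 were not analysed here.

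Total counts ran from 645460 in young control 2 to 9645502 in old control 1, so that 3 counts stand for 4.65 and 0.311 CPM (counts per 1000000 counts of a library). The young controls were the shallowest group, with 645460 to 1600995 counts. Kit was present in all 12 libraries at 97.2 to 265 CPM, and Ly6g was at 0 in all 12. Ly6a, which encodes Sca1, was at 0 in 9 libraries but reached 79.0 CPM in old control 1, with 768 counts in all. Itgam, which encodes CD11b, was at 45.8 to 1026 CPM. Wt1 had 1 to 23 counts a library, and since it is not known whether these tags lie within the floxed stretch, they do not check the genotype. Young control 3 and old control 1 held the lowest level of the most members, as given below beside the shares over all tested genes. Results without these libraries are given where they differ. Xist was counted at 589 CPM or more with Ddx3y at 0 in young control 3, all young hets and old het 1, so sex-linked RNA differs between young hets and young controls 1 and 2. In bulk samples, fewer cells in S phase and less RNA of these genes per cell cannot be told apart.

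**Figure D1:**
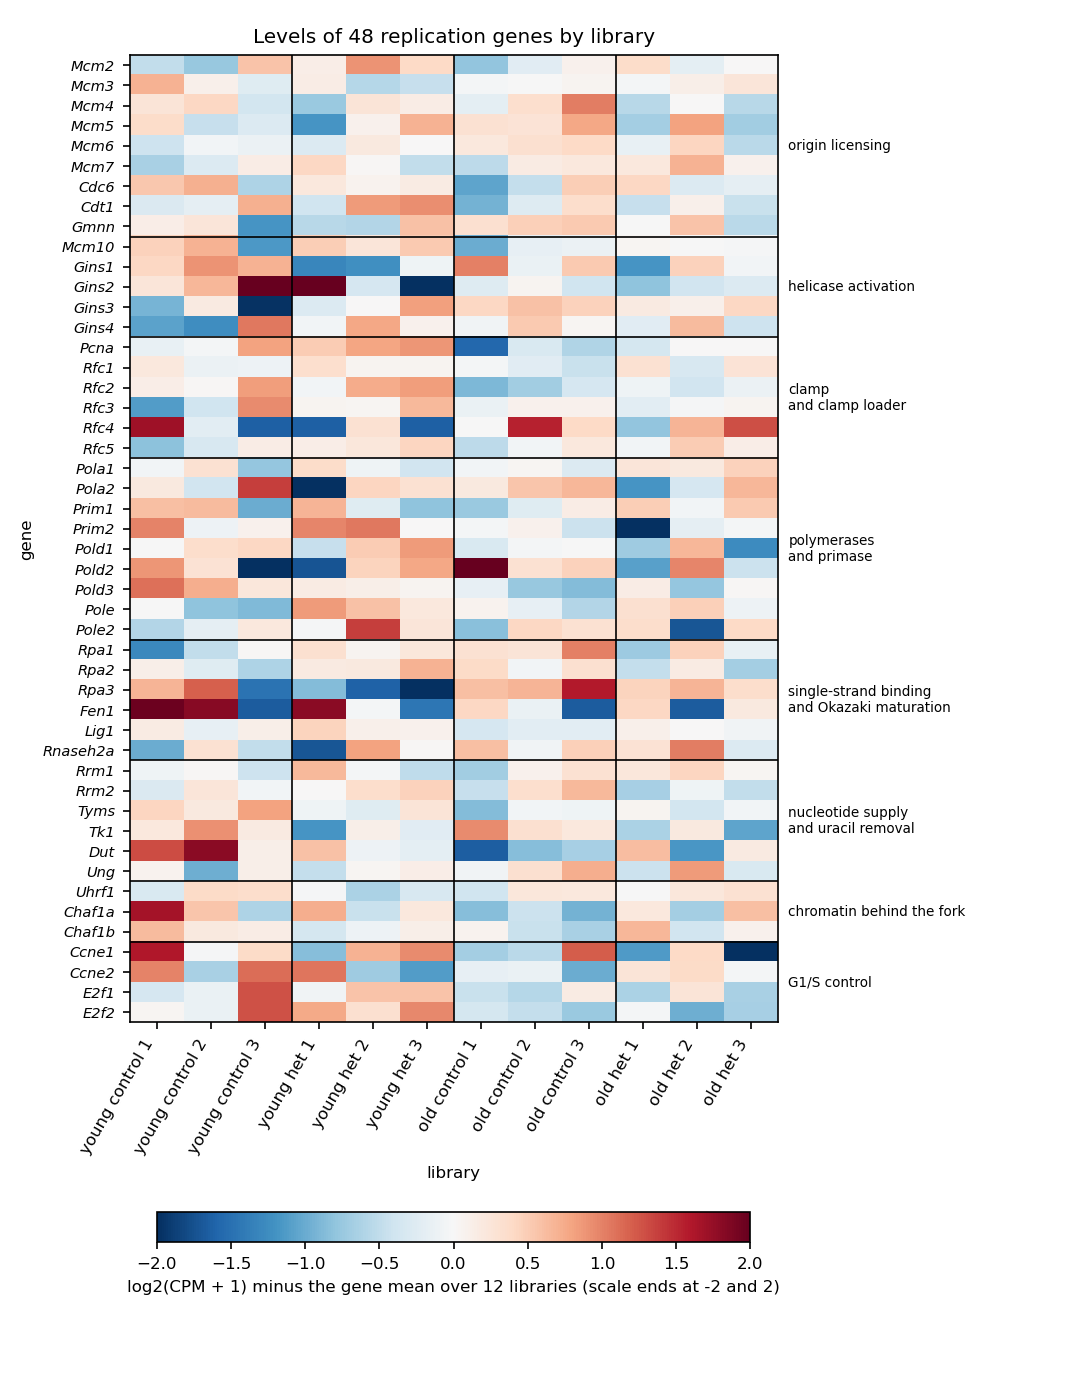
Level of each of the 48 members (rows, by step) in each of the 12 libraries (columns, by group), as log2(CPM + 1) minus the gene's own mean, with colours ending at -2 and 2. Dut and Pold3 are high in young controls 1 and 2 and low in the old controls, and the old controls also lie apart from the young controls in another 12 of the 48 rows.

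Summed over the 48 members, the level was 12264, 12623 and 10824 CPM in young controls 1 to 3 and 11611, 10988 and 10986 CPM in young hets 1 to 3. It was 7119, 8337 and 9273 CPM in old controls 1 to 3 and 10318, 9385 and 9578 CPM in old hets 1 to 3. Each old control thus lay below each library of the other groups. Dut alone made up 5.76 to 35.6% of this sum. Without Dut the sums were 8125 to 9426 CPM in young control, 9673 to 9863 CPM in young het, 6710 to 8466 CPM in old control and 8116 to 8810 CPM in old het, so that the old controls then overlapped both young control and old het. The members took 0.806 to 1.15% of all counts of a library.

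Libraries of the same group also differed. In 45 of the 48 members the highest library was over 2 times the lowest. The most members, 8, had their highest level in young control 3, which is 16.7% of them beside 13.4% of all tested genes. The same library held the lowest level of 9 members (18.8%, beside 22.7% of all tested genes), and old control 1 that of another 9 (18.8%, beside 9.89%). In 23 members no comparison found groups that did not overlap.

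**Figure D2:**
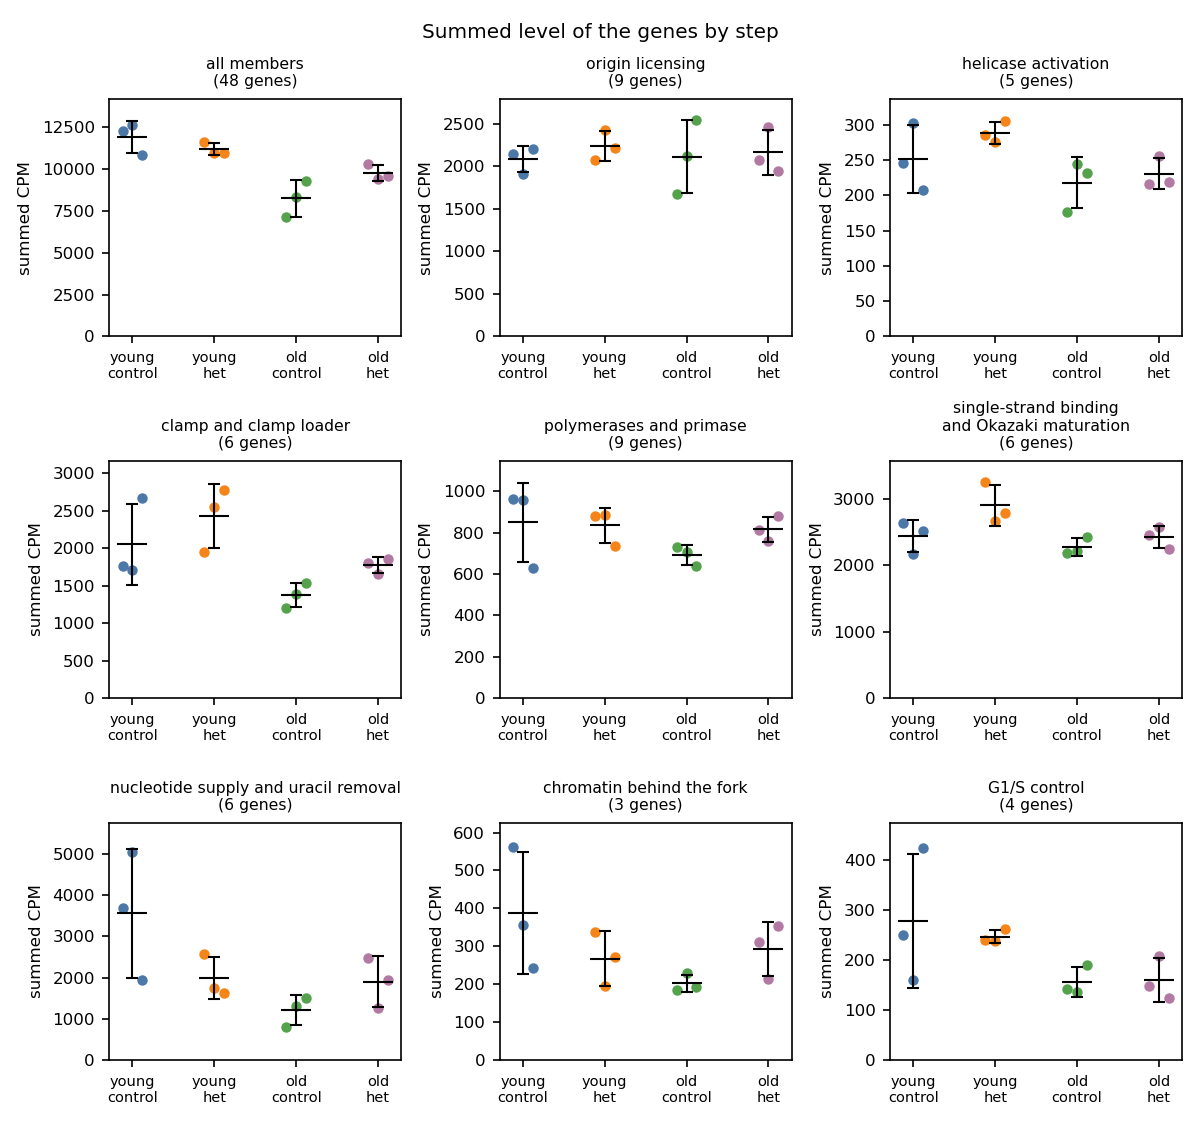
Summed CPM of the members of each step in the 12 libraries; points are libraries, long bars group means and whiskers the SD of 3 libraries. The nucleotide supply panel has the widest spread, from 808 CPM in old control 1 to 5050 CPM in young control 2, and the licensing panel has group means of 2087 to 2240 CPM.

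Between young het and young control, 0 of 48 members passed at an adjusted p of 0.05, where 45 of 10604 genes (0.424%) did in edgeR's quasi-likelihood test. DESeq2 and limma-voom also called 0 members, where they called 355 and 23 of the 10604 genes. At an unadjusted p under 0.05 there were 4 members, beside 1488 of all genes. The median log2 change of the members was 0.12, beside 0.08 over all tested genes, and 28 were above 0. In 3 members (Pole, Rpa1 and Rpa2) every het lay above every control, which all genes did at 9.72%. In 4 members (Gins1, Pold3, Tk1 and Chaf1b) every het lay below every control, which all genes did at 7.12%. As shares of the members these are 6.25% and 8.33%, below and near their backgrounds.

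Between old het and old control, 0 of 48 members passed, as 0% of the 10604 genes did. DESeq2 and limma-voom called 0 members as well, and 0 genes in all. An unadjusted p under 0.05 was found for 2 members (4.17%) and 380 genes (3.58%). The median log2 change was -0.01, beside -0.05 over all tested genes. The groups did not overlap in 4 members that were higher in het (Pola1, Ccne2, Mcm10 and Lig1; 5.15% of all genes) and in 1 that was lower (Tk1; 5.99% of all genes), which are 8.33% and 2.08% of the members. Tk1, the thymidine kinase of the salvage path, was lower in every het than in every control at both ages.

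For the difference between the old and the young het effect, 0 of 48 members passed, and 9 genes (0.0849%) did. The members' median difference was 0.05, beside -0.18 over all tested genes, and 5 members (10.4%) had an unadjusted p under 0.05, beside 1356 of all genes (12.8%). The signs of the fitted changes were spread, with 12 members above 0 at both ages, 9 below 0 at both, 16 above in young and below in old, and 11 the other way round. No member's groups stood apart in opposite directions at the 2 ages.

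**Figure D3:**
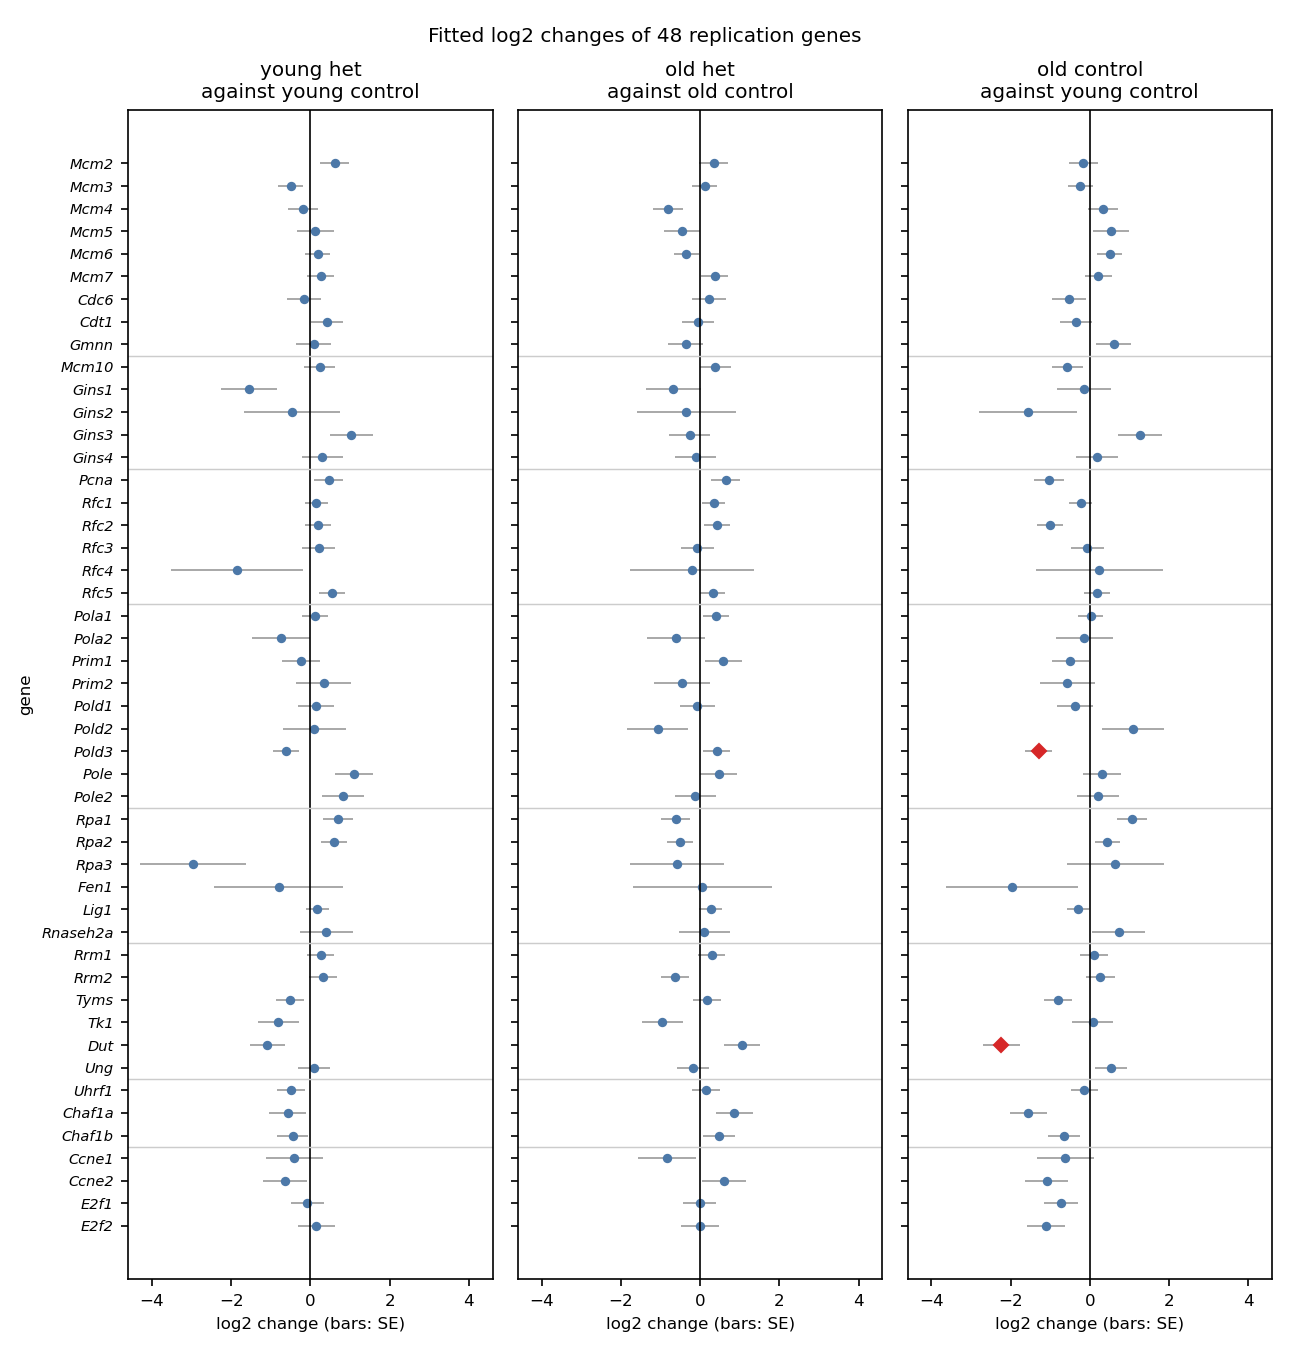
Fitted log2 change of each member (points, bars are SE) in 3 comparisons of 3 against 3 libraries, in the order of the steps. Red diamonds, past an adjusted p of 0.05, mark Dut and Pold3 in old control against young control; the long bars of Rfc4, Fen1, Rpa3 and Gins2 belong to genes at 0 counts in some library.

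Between old control and young control, which share their libraries with the het comparisons, 2 of 48 members passed and both fell. That is 4.17% of the members, beside 6.98% of all genes in either direction and 4.19% that fell, so the members' share does not exceed the background. Every old control lay above every young control in 4 members (Rpa1, Gins3, Mcm6 and Gmnn; 19% of all genes). Every old control lay below every young control in 10 members (Dut, Pold3, Rfc2, Pcna, E2f2, Tyms, Chaf1b, Gins2, Lig1 and Pold1; 12.2% of all genes). These are 8.33% and 20.8% of the members. The median log2 change was -0.14, beside 0.22 over all tested genes. The count of members past the test was 5 with DESeq2, which added Chaf1a, Pcna and Rfc2 and called 1295 of 10604 genes. It was 4 without young control 3, which added Chaf1a and Rpa1, with 777 of 11290 genes called. It was 1, Dut, without young control 1, old control 2 or old control 3, with 432, 335 and 394 genes called.

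Marker lists moved with this comparison. Stem and multipotent progenitor markers summed to 499 to 667 CPM in young control and 831 to 2589 CPM in old control. The upper end was old control 1, which also held the highest Meis1 (439 CPM) and Hlf (306 CPM) of all libraries. T and NK cell markers summed to 21.7 to 43.2 CPM and 98.8 to 184 CPM in the same order. Cd3e, Cd3g, Cd8a, Klrb1c and Ncr1 were at 0 in young control, but these zeros were not particular to that group. Cd3e and Cd3g were at 0 in 11 of the 12 libraries, and Cd8a, Klrb1c and Ncr1 in 10. Over all libraries Nkg7 held 3374 counts of this list and Cd3e 55. B cell markers summed to 152 to 225 CPM and 33.7 to 63.6 CPM, with Cd79a at 0 in both groups. Megakaryocyte markers summed to 110 to 197 CPM and 216 to 534 CPM, with Gp6 at 0 in both, and macrophage and dendritic cell markers to 11.9 to 35.9 CPM and 45.8 to 746 CPM. Old control 1 was also the upper end in old control of the T and NK, megakaryocyte, and macrophage and dendritic cell lists. Lists also moved between the young groups. In young het, neutrophil and monocyte precursor markers summed to 19267 to 26300 CPM, above the 11119 to 16210 CPM of young control, and basophil and mast cell markers to 685 to 951 CPM, above 177 to 479 CPM. Stem and multipotent progenitor markers to 766 to 914 CPM, above 499 to 667 CPM, T and NK cell markers to 49.1 to 115 CPM, above 21.7 to 43.2 CPM, and B cell markers to 93.2 to 133 CPM, below 152 to 225 CPM. Between the hets, erythroid markers summed to 1743 to 3075 CPM in young het and 744 to 1631 CPM in old het, with no marker at 0 throughout either group, and B cell markers to 93.2 to 133 CPM and 41.7 to 61.0 CPM, with Cd79a at 0 in old het. Between the old groups the summed ranges of all 8 lists overlapped. The marker sums are against plain library totals, unlike the members' levels, and were not recomputed on the members' scale. The part of these cell types in the members' values was not tested.

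Between old het and young het, 0 of 48 members passed, and 1 gene in all (0.00943%) did. DESeq2 and limma-voom called 0 members, and 4 members (8.33%) had an unadjusted p under 0.05, beside 666 genes (6.28%). Rpa3 and Uhrf1 were higher in every old het (7.08% of all genes were). E2f2, Pcna, Rfc2, Rpa2, Prim2, Rrm2 and Mcm10 were lower in every old het (6.95% of all genes were). These are 4.17% and 14.6% of the members. The median log2 change was -0.11, beside 0.01 over all tested genes.

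Origin licensing held 9 members. Mcm2 to Mcm7 encode the 6 subunits of the helicase ring, Cdc6 and Cdt1 load it, and Gmnn encodes geminin. None of the 9 passed in any comparison, and in neither het comparison did the groups stand apart for any of them. Mcm2 was at 273, 228 and 572 CPM in young control, 422, 719 and 509 CPM in young het, 221, 330 and 408 CPM in old control and 496, 335 and 387 CPM in old het. Its log2 change in young het was 0.62 (SE 0.37, adjusted p = 0.475). The young groups overlapped through young control 3.

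Mcm3 was at 861, 571 and 448 CPM in young control, 588, 356 and 386 CPM in young het, 514, 527 and 550 CPM in old control and 516, 576 and 625 CPM in old het. Its old libraries lay close together and its young ones did not. Mcm4 was at 154, 172 and 99.4 CPM in young control, 75.9, 153 and 143 CPM in young het, 111, 162 and 261 CPM in old control and 86.5, 128 and 86.7 CPM in old het. Its log2 difference between old het and old control was -0.82 (SE 0.38, unadjusted p = 0.0419, adjusted p = 0.999), and old het 2 overlapped with the controls.

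Mcm6 was at 150, 194 and 184 CPM in young control and 232, 250 and 265 CPM in old control, with a log2 difference of 0.50 (SE 0.31, adjusted p = 0.349). The het groups overlapped for it, at 166 to 230 CPM and 137 to 269 CPM. Gmnn was likewise above every young control in every old control, at 75.5 to 86.7 CPM against 26.0 to 71.4 CPM. Mcm5 ran from 44.4 to 179 CPM over the 12 libraries, Mcm7 from 240 to 610 CPM, Cdc6 from 34.3 to 119 CPM and Cdt1 from 102 to 377 CPM. The 4 groups overlapped for each of these. The 6 ring subunits, which stand in equal number in the ring, had fitted changes of both signs. In young het against young control Mcm3 and Mcm4 had log2 changes of -0.50 and -0.19, and the other 4 lay at 0.13 to 0.62, none past the test.

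**Figure D4:**
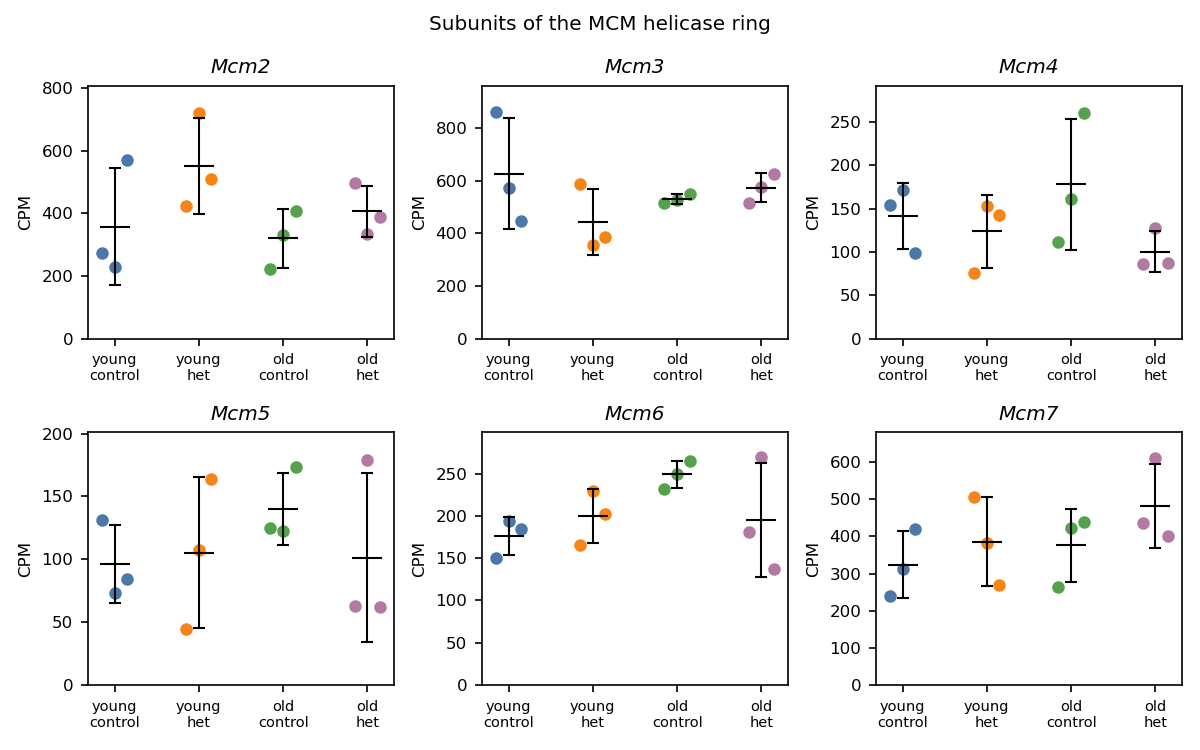
CPM of the 6 subunits of the MCM ring in the 12 libraries; points are libraries, long bars group means and whiskers the SD of 3 libraries. All 3 old controls exceed all 3 young controls for Mcm6, and in the pairs of groups compared the other subunits overlap.

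Helicase activation held Mcm10, which helps the loaded ring to open, and Gins1 to Gins4, the GINS subunits. Gins1 was at 16.7, 23.8 and 20.6 CPM in young control and 4.37, 4.65 and 11.6 CPM in young het, and every het lay below every control. The log2 difference was -1.55 (SE 0.70, unadjusted p = 0.0399, adjusted p = 0.324). In old mice Gins1 was at 25.6, 11.1 and 18.1 CPM in control and 4.85, 17.2 and 11.8 CPM in het, which overlapped. Gins3 went the other way in young libraries, at 13.7, 30.6 and 6.11 CPM in control and 22.2, 27.0 and 48.4 CPM in het, with a log2 difference of 1.03 (SE 0.55, adjusted p = 0.414). The GINS subunits, which form 1 complex, thus had differences of opposite sign, none past the test.

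Mcm10 was at 188, 221 and 61.1 CPM in young control, 191, 161 and 197 CPM in young het, 67.8, 122 and 125 CPM in old control and 140, 135 and 133 CPM in old het. Every old het lay above every old control, at a log2 difference of 0.38 (SE 0.39, adjusted p = 0.999). Gins4 ran from 18.7 to 96.3 CPM, both in young control. Gins2 had 0 counts in young het 3 and 24.2 CPM in young het 1, and its exons overlap Gse1 on the other strand. Old controls, at 3.54 to 5.19 CPM, lay below young controls, at 6.07 to 22.9 CPM, with a log2 difference of -1.56 (SE 1.24, adjusted p = 0.481).

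The clamp and its loader held Pcna, the sliding clamp, and Rfc1 to Rfc5, the loader that opens it around DNA. Pcna was at 94.9, 102 and 184 CPM in young control, 150, 183 and 195 CPM in young het, 34.4, 84.4 and 68.5 CPM in old control and 81.7, 106 and 105 CPM in old het. Both old groups lay below their young counterparts without overlap. The log2 difference was -1.03 (SE 0.37, adjusted p = 0.0961) between the controls and -0.85 (SE 0.37, adjusted p = 0.726) between the hets. A processed copy, Pcna-ps2, had at most 9 counts in a library.

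Rfc2 followed the same order. It was at 981, 916 and 1602 CPM in young control, 863, 1495 and 1601 CPM in young het, 480, 553 and 713 CPM in old control and 848, 688 and 825 CPM in old het. The log2 difference was -1.0 between the controls (SE 0.33, adjusted p = 0.0712) and -0.75 between the hets (SE 0.33, adjusted p = 0.742), neither past the test. Exons of Rfc2 overlap Lat2 on the other strand, and since the strand setting of the counts is not given, reads of the pair cannot be told apart. Rfc5 was at 176, 250 and 346 CPM in young control, 344, 365 and 420 CPM in young het, 218, 299.6 and 361 CPM in old control and 302, 446 and 343 CPM in old het. The young groups overlapped narrowly, at a log2 difference of 0.55 (SE 0.32, adjusted p = 0.469). Rfc1 ran from 297 to 508 CPM, Rfc3 from 38.7 to 165 CPM and Rfc4 from 0 to 9.11 CPM, with 0 counts in 3 libraries. Rfc4 and Rfc5 each overlap a gene on the other strand, Eif4a2 and Wsb2.

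The polymerases and primase held Pola1 and Pola2 of polymerase alpha, Prim1 and Prim2 of primase, Pold1, Pold2 and Pold3 of polymerase delta, which makes most of the lagging strand, and Pole and Pole2 of polymerase epsilon on the leading strand. Pold3 was at 342, 263 and 186 CPM in young control, 178, 174 and 166 CPM in young het, 142, 93.6 and 87.1 CPM in old control and 177, 93.4 and 163 CPM in old het. Every old control and every young het lay below every young control. Pold3 fell in old control against young control, at a log2 change of -1.29 (SE 0.34, adjusted p = 0.0272). Its level was 264 ± 78 CPM (SD, n = 3) in young control and 108 ± 29.9 CPM in old control.

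The call on Pold3 was lost without young control 1 (log2 change -1.12, adjusted p = 0.0944), without old control 2 (-1.20, adjusted p = 0.113), without old control 3 (-1.15, adjusted p = 0.117) and with no scaling beyond the total (-0.97, adjusted p = 0.0657). In young het against young control the log2 change was -0.61 (SE 0.34, adjusted p = 0.436), and in old het against old control it was 0.42 (SE 0.34, adjusted p = 0.999). The difference of these effects was 1.03 (SE 0.48, adjusted p = 0.370).

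The catalytic partner Pold1 ran from 26.3 to 116 CPM, and its log2 change in old control against young control was -0.38 (SE 0.46, adjusted p = 0.661). Pold2, the small subunit that joins the others, ran from 2.29 CPM in young control 3 to 96.8 CPM in old control 1, with a log2 change of 1.09 (SE 0.79, adjusted p = 0.433). The subunits of polymerase delta thus had values of both signs. Pole, the catalytic subunit of polymerase epsilon, was at 27.3, 15.3 and 14.5 CPM in young control, 50.7, 42.0 and 32.2 CPM in young het, 29, 24.5 and 18.1 CPM in old control and 34.8, 38.9 and 25.6 CPM in old het. Each young het lay above each young control, at a log2 difference of 1.11 (SE 0.48, unadjusted p = 0.0308, adjusted p = 0.296), and the old groups overlapped. Exons of Pole overlap the predicted gene Gm15792 on the other strand. Pole2 was at 34.2 to 60.4 CPM in young control and 51.1 to 137 CPM in young het, which overlapped.

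Pola1 was at 321, 413 and 194 CPM in young control, 431, 314 and 257 CPM in young het, 321, 343 and 277 CPM in old control and 397, 384 and 461 CPM in old het. Every old het lay above every old control, at a log2 difference of 0.40 (SE 0.32, adjusted p = 0.999). Pola2 ran from 2.02 to 42.8 CPM, Prim1 from 27.5 to 89.4 CPM and Prim2 from 1.62 to 27.8 CPM. Prim2 was lower in every old het than in every young het, at a log2 difference of -1.37 (SE 0.71, adjusted p = 0.821).

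Single-strand binding and Okazaki maturation held Rpa1, Rpa2 and Rpa3, the subunits of the protein that coats single strands, Fen1, which cuts primer flaps, Lig1, which seals nicks, and Rnaseh2a, which removes ribonucleotides. Rpa1 was at 61.5, 107 and 153 CPM in young control, 190, 157 and 177 CPM in young het, 187, 182 and 305 CPM in old control and 90.6, 209 and 136 CPM in old het. Young control lay below young het and below old control without overlap. The log2 difference was 0.70 (SE 0.38, adjusted p = 0.423) in young het, -0.62 (SE 0.37, adjusted p = 0.999) in old het and 1.07 (SE 0.38, adjusted p = 0.0935) between the controls. The difference of the het effects was -1.32 (SE 0.53, unadjusted p = 0.0212, adjusted p = 0.288).

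Rpa2 had the same signs. It was at 337, 262 and 201 CPM in young control, 351, 356 and 501 CPM in young het, 404, 297 and 386 CPM in old control and 221, 348 and 194 CPM in old het. The log2 difference was 0.60 (SE 0.32, adjusted p = 0.428) in young het and -0.51 (SE 0.32, adjusted p = 0.999) in old het, and the difference of the effects was -1.10 (SE 0.45, unadjusted p = 0.0244, adjusted p = 0.304). The young groups did not overlap and the old ones did. Rpa3 had 9, 6 and 1 counts in young control, 5, 4 and 0 counts in young het, 70, 29 and 31 counts in old control and 7, 17 and 8 counts in old het, which stand for 6.83, 10.2 and 0.764 CPM, 1.68, 0.601 and 0 CPM, 6.41, 6.84 and 13.7 CPM, and 5.66, 6.81 and 5.25 CPM. The young groups overlapped through young control 3. Its fitted log2 change in young het was -2.96 (SE 1.34, unadjusted p = 0.0391, adjusted p = 0.322), a value that depends on the handling of 0 counts.

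Lig1 took 14 to 23.2% of the tags of all 48 members. It was at 2204, 1764 and 2144 CPM in young control, 2694, 2120 and 2090 CPM in young het, 1564, 1707 and 1700 CPM in old control and 2113, 1980 and 1893 CPM in old het. Old controls lay below every library of the other groups, with log2 differences of 0.27 (SE 0.29, adjusted p = 0.999) for old het and -0.30 (SE 0.29, adjusted p = 0.568) against young control. Fen1 had 0 counts in young control 3, old control 3 and old het 2 and at most 11.4 CPM, and its exons overlap Gm10143 on the other strand. Rnaseh2a, which overlaps Prdx2 on the other strand, ran from 4.70 to 36.9 CPM, and from 4.70 to 31.5 CPM within young het. Neither gene's groups stood apart in any comparison.

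Nucleotide supply and uracil removal held Rrm1 and Rrm2, the subunits of ribonucleotide reductase, Tyms, which makes thymidylate, Tk1, Dut, and Ung, which cuts uracil out of DNA. Dut was at 3162, 4498 and 1398 CPM in young control, 1937, 1202 and 1123 CPM in young het, 410, 708 and 807 CPM in old control and 1966, 576 and 1462 CPM in old het. These rest on at least 1436 counts in every library, so the spread is larger than counting error. Young controls 1 and 2 were the highest, every old control lay below every young library, and old hets 1 and 3 lay above old het 2 and the old controls. Dut fell in old control against young control, at a log2 change of -2.23 (SE 0.47, adjusted p = 0.00695), with means of 642 ± 207 CPM and 3019 ± 1555 CPM (SD, n = 3 each).

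Between het and control, Dut had the smallest p among the members at each age and opposite signs. The log2 change was -1.09 (SE 0.45, unadjusted p = 0.0251, adjusted p = 0.276) in young het and 1.06 (SE 0.45, unadjusted p = 0.0291, adjusted p = 0.999) in old het, and the groups overlapped at both ages. The difference of the effects was 2.14 (SE 0.64, unadjusted p = 0.00298, adjusted p = 0.153), which did not pass. It passed with DESeq2 (adjusted p = 0.0154), with no filter on low counts (adjusted p = 0.00882), without young control 3 (adjusted p = 0.0421) and without old het 2 (adjusted p = 0.0270), and over the 21 alternatives the adjusted p ran from 0.00882 to 1. The het groups lay at a log2 difference of -0.09 (SE 0.44) between the ages, while the control groups lay at -2.23. All of these contrasts share libraries.

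The mitochondrial rRNA share moved with Dut. It was 5.03, 8.22 and 4.35% of counts in young control, 3.51, 3.01 and 3.0% in young het, 1.70, 2.38 and 2.13% in old control and 4.78, 1.40 and 4.75% in old het. Old het 2, the lowest old het for Dut and Pold3, was also the lowest for this share, and young control 2, the highest for Dut, was the highest for it. With the share as a covariate, the log2 change in old control against young control was -0.55 for Dut (adjusted p = 0.753) and -0.82 for Pold3 (adjusted p = 0.60), and 0 genes passed in all. The share itself separates these 2 groups without overlap, so its effect and that of the group cannot be told apart in this fit. In the same fit the change of Dut in young het was 0.12 (adjusted p = 0.965), of opposite sign to the value above.

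**Figure D5:**
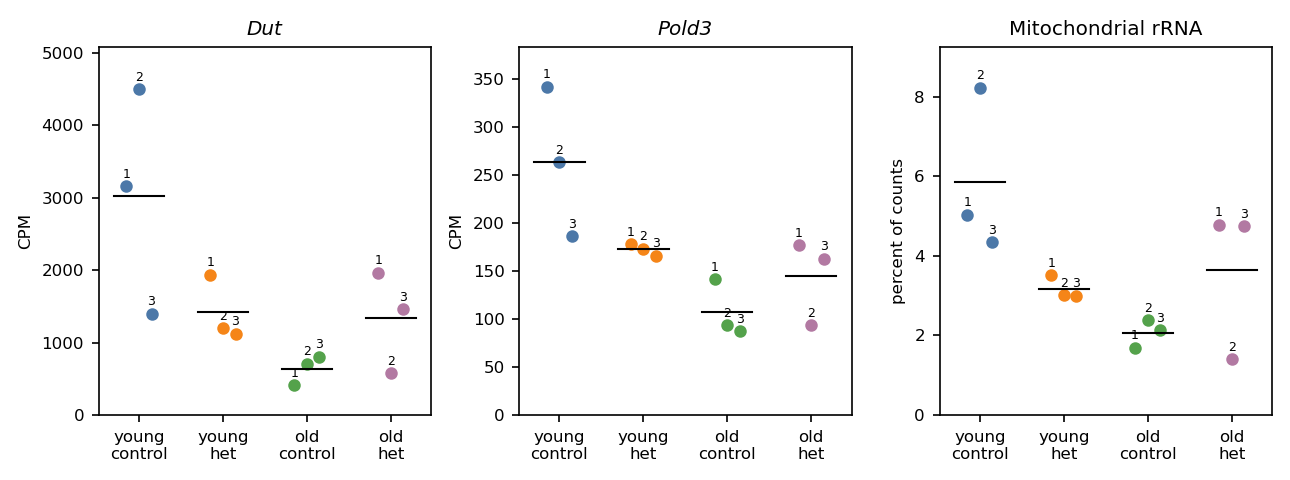
CPM of Dut and of Pold3 and the mitochondrial rRNA share in percent of counts, by library; numbers are replicates and bars group means. In all 3 panels the old controls lie below the young controls, and old het 2 lies below old hets 1 and 3.

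The summed level of the other 5 genes of this step was 541, 552 and 534 CPM in young control, 646, 549 and 511 CPM in young het, 398, 604 and 708 CPM in old control and 523, 683 and 489 CPM in old het, and all 4 group ranges overlapped, with means of 542 to 570 CPM. Tk1 was at 29.6, 49.3 and 29 CPM in young control, 10.7, 27.9 and 21.7 CPM in young het, 50.4, 32.1 and 29.6 CPM in old control and 16.2, 29.3 and 11.8 CPM in old het. The log2 difference was -0.81 (SE 0.52, adjusted p = 0.515) in young het and -0.96 (SE 0.52, adjusted p = 0.999) in old het, with neighbouring libraries of the groups nearly touching. Its exons overlap Afmid on the other strand.

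Tyms was at 101, 85.0 and 130 CPM in young control and 40.1, 71.9 and 70.3 CPM in old control, without overlap, at a log2 difference of -0.80 (SE 0.36, adjusted p = 0.181). Its log2 change was -0.51 in young het and 0.18 in old het, so that its signs were those of Dut in all 3 comparisons, none of them past the test. Rrm2 was at 88.0 to 122 CPM in young het and 55.0 to 82.6 CPM in old het, also without overlap, at -0.68 (SE 0.36, adjusted p = 0.826). Rrm1 ran from 164 to 417 CPM and Ung from 42.5 to 152 CPM, and in no comparison did the groups stand apart for either.

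Chromatin behind the fork held Chaf1a and Chaf1b, subunits of the factor that places histones on new DNA, and Uhrf1, which reads half-methylated sites for the maintenance of methylation. Chaf1a was at 419, 194 and 85.6 CPM in young control, 220, 97.0 and 153 CPM in young het, 72.4, 98.1 and 68.1 CPM in old control and 153, 81.8 and 200 CPM in old het. Its log2 difference between old and young control was -1.55 (SE 0.47, adjusted p = 0.0501), just outside the threshold, with young control 3 inside the range of the old controls. The difference of its het effects was 1.44 (SE 0.65, unadjusted p = 0.0397, adjusted p = 0.362). Its exons overlap Ubxn6 on the other strand.

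Chaf1b was at 76.7, 56.1 and 54.3 CPM in young control and 38.0, 45.6 and 53.2 CPM in young het, without overlap, at a log2 difference of -0.45 (SE 0.40, adjusted p = 0.665). In old libraries it ran from 31.0 to 51.6 CPM in control and from 37.3 to 77.6 CPM in het. Uhrf1 was at 65.3, 105 and 104 CPM in young control, 79.3, 51.6 and 64.6 CPM in young het, 60.8, 94.8 and 94.2 CPM in old control and 80.1, 94.6 and 100.5 CPM in old het. The young groups overlapped, at a log2 difference of -0.49 (SE 0.35, adjusted p = 0.570). All 3 genes of the step were below 0 in young het and above 0 in old het, and none passed.

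G1/S control held the cyclins E, Ccne1 and Ccne2, which drive entry into S phase, and the transcription factors E2f1 and E2f2. All 4 had fitted changes below 0 in old control against young control, with a median log2 change of -0.91, and none passed. E2f2 was at 32.7, 28.9 and 78 CPM in young control, 54.1, 39.8 and 62.7 CPM in young het, 24.6, 22.4 and 18.6 CPM in old control and 30.7, 15.6 and 19.7 CPM in old het. Both old groups lay below their young counterparts, at log2 differences of -1.10 (SE 0.48, adjusted p = 0.169) between controls and -1.26 (SE 0.48, adjusted p = 0.723) between hets. E2f1 was at 75.9, 86.7 and 233 CPM in young control, 90.7, 142 and 143 CPM in young het, 69.9, 63.9 and 107 CPM in old control and 61.5, 115 and 60.4 CPM in old het. Young control 3 was the highest library for both E2F genes.

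Ccne2 was at 81.2, 25.5 and 88.7 CPM in young control, 85.7, 24.3 and 18.1 CPM in young het, 35.8, 36.8 and 19.9 CPM in old control and 48.5, 53.3 and 39.4 CPM in old het. Every old het lay above every old control, at a log2 difference of 0.60 (SE 0.55, adjusted p = 0.999), while the young groups overlapped widely. Its exons overlap Ints8 on the other strand. Ccne1 ran from 3.94 CPM in old het 3 to 59.98 CPM in young control 1.

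Other genes of the pathway were taken from lists not used to choose the members. Among 43 tested further replication factors, 0 passed in either het comparison, in the difference or between the hets, and 3 fell in old control against young control, where 4.19% of all genes fell. They were Wdhd1, a fork scaffold, at 232 ± 72.6 CPM against 752 ± 320 CPM (SD, n = 3 each; log2 change -1.70, adjusted p = 0.00893), Atad5, which unloads PCNA, at a log2 change of -1.58 (adjusted p = 0.0163), and Timeless, of the fork protection complex, at -1.60 (adjusted p = 0.0175). Cdc45, the partner of MCM and GINS in the active helicase, was at 57.2 ± 9.81 CPM in young het and 17.0 ± 4.67 CPM in young control. Its groups did not overlap (log2 difference 1.77, SE 0.50, adjusted p = 0.117). Timeless went the other way in young het (-1.09, SE 0.38, adjusted p = 0.196), as did 27 of the 43. Every young het lay above every young control in 3 of the 43 and below in 2, beside 9.72% and 7.12% of all genes. The median log2 change of the 43 was -0.23 in young het, 0.16 in old het and -0.15 between the controls, beside 0.08, -0.05 and 0.22 over all tested genes.

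Among 32 tested further genes of nucleotide synthesis, 2 fell in old control against young control, beside the same 4.19% of all genes, and 0 passed elsewhere. Mthfd2, of the mitochondrial folate path, was at 73.4 ± 28.5 CPM in old control and 281 ± 23.4 CPM in young control (log2 change -1.94, adjusted p = 0.00654). Adssl1, of adenylate synthesis, had a log2 change of -1.90 (adjusted p = 0.00836). Its difference of het effects was 2.25 (SE 0.57, adjusted p = 0.101), with the same sign as that of Dut. Among 28 tested genes of mitosis 1 passed, the kinetochore gene Nuf2, which fell between the controls (log2 change -1.19, adjusted p = 0.0490), again beside 4.19% of all genes. The medians of the mitosis list were -0.06 in young het, 0.01 in old het and 0.18 between the controls, where all tested genes had 0.08, -0.05 and 0.22.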

How the data were processed

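RNA of 12 libraries was measured. The deposited table holds raw counts by gene symbol. The submitters' processing notes name build mm9, DESeq2, HTSeq 0.6.1 and STAR 2.4 without roles or order. Library preparation used Lexogen's kit for 3' mRNA-seq, per the labels. Which annotation and strand setting were used, and whether molecular identifiers were read, is not given in the sources. Replicates are numbered within a group and the labels do not say that they came from separate animals, so p-values measure only the spread between these samples. Replicates differed from each other by more than sampling noise in every pair (chi-square over its degrees of freedom, 5.01 to 57.8). Total counts were 645460 to 9645502, and floors cover counting error only.

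Genes were tested in R 4.3.3 with edgeR 4.0.16 (quasi-likelihood F test, TMM scaling, filterByExpr with a minimum count of 10 and total of 15), which left 10604 of 33924 genes, and 15075 genes had 0 counts everywhere. The 4 groups entered 1 fit with no covariate (biological coefficient of variation 0.535). P-values were adjusted over all tested genes by the Benjamini-Hochberg method at 0.05. The SE is the absolute log2 change divided by the square root of F. CPM of the members and of the further pathway genes are against TMM-scaled totals. CPM of Kit, Ly6a, Ly6g, Itgam, Xist and the cell type marker lists are against plain library totals. Groups are called apart when no library of one lies within the range of the other. The fitting code was also run on simulated counts with added changes.

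The members and lists were chosen with earlier results of these data known. Values in every library are given for members past the threshold, for the 4 smallest p-values in each het comparison and in the difference, and per step for the highest mean and the smallest p in young het; other values were chosen after they were seen. Alternatives were DESeq2 1.42.0, limma-voom (limma 3.58.1), fits of the compared groups alone, other filters and scalings, thinned counts, the share of mitochondrial rRNA as a covariate, and libraries left out. Promoters are from RefSeq (GRCm38.p6; 39 of 48 members matched). Overlapping exons are from a GRCm38 annotation, by symbol; 11 members overlap a gene of the table on the other strand, Mcm7 among them (Ap4m1 and Cops6, and Mir25 and Mir93 on its own strand).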

Additional observations from a re-analysis of the deposited data

How the results depend on the processing

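No member passed between het and control at either age, or between the het groups, under any of the 16 alternatives run for each. No paired analysis was possible because the replicate numbers only name the samples. For the difference of het effects, 1 member, Dut, passed with DESeq2 and with no filter on low counts, and leaving out 1 library gave 0 to 1. For old against young control, DESeq2 called 5 members (Chaf1a, Dut, Pcna, Pold3 and Rfc2), thinned counts 4 of 44 tested, the mitochondrial rRNA covariate 0, and leaving out 1 library gave 1 to 4. These counts stand here without the share over all genes, so they are not read as a result about the members. Dut passed each time 1 library was left out, at a log2 change of -2.62 to -1.92 and an adjusted p of at most 0.0450. With the covariate Dut had a log2 change of 0.12 in young het.

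With no scaling beyond the total, the median over all genes shifted from 0.08 to 0.22 in young het, from -0.05 to -0.16 in old het and from 0.22 to 0.52 between the controls, and the members' medians went to 0.26, -0.12 and 0.13, with -0.17 for the difference. With the covariate they were -0.043 in young het, 0.14 in old het and 0.19 in the difference. Thinned counts gave 0.12 in old het and -0.31 between the controls. For the difference, a minimum count of 30 gave -0.12, and leaving out old control 1 and young control 3 together gave -0.23. Leaving out 1 library gave medians of -0.0064 to 0.12 in young het, -0.088 to 0.11 in old het, -0.19 to 0.15 for the difference, -0.34 to -0.033 between the controls and -0.29 to -0.12 between the hets. Each median but that between the hets thus changed sign under at least 1 alternative. Rfc4, Rpa3, Fen1 and Gins2 had 0 counts in at least 1 library. The shallowest library had no member at 0, and the part of depth in their spread was not tested.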
